A study of Mus musculus with 22 samples.

Results

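The Zscan4 family copies are 6 closely related genes on mouse chromosome 7, Zscan4a to Zscan4f, taken from the deposited expression table by gene symbol alone. They are 6 of the 55335 genes in that table. The study injected zygotes to lower the histone variant H2A.Z and sequenced the polyadenylated RNA of 2-cell embryos, morulae and blastocysts. All embryos came from B6D2F1 females mated with B6D2F1 males. Each library was made by Smart-seq2 from a pool of 15 embryos and read as pairs of 150 bases. Knockdown embryos had received about 10 pL of a mixture of siRNAs against H2A.Z at 20 µM, and the labels call the other embryos control without stating what, if anything, was injected into them. There were 4 control and 3 knockdown libraries of 2-cell embryos, 4 and 3 of morulae, and 4 and 4 of blastocysts, named here by the replicate numbers of the labels.

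Zscan4 genes encode nuclear proteins with a SCAN domain and zinc fingers. In the mouse they are transcribed in a burst when the embryo's own genome is first activated at the late 2-cell stage, and in a small, changing fraction of embryonic stem cells that resemble 2-cell embryos. They are known for a role in telomere lengthening and genome stability, and the transcription factor Dux is among their known activators.

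Levels are FPKM, the fragments of a gene divided by its transcript length and by the size of the library, so copies of different length share 1 scale. Comparisons between copies also depend on how fragments common to several of them were divided, as described below. The table holds no counts. From the spacing of the lowest values of 13491 single-exon genes, 1 step being read as 1 fragment, the libraries held approximately 14.9 M to 28.8 M fragments, the fewest in a control blastocyst library and the most in a control morula library. Only 7.99% to 30.2% of the low values in a library lay on the step, so its support is weak. Fragment numbers for single genes below rest on that step and on the longest annotated transcript, so they are rough guides, and they count amplified molecules rather than independent ones.

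H2afz, the gene that encodes H2A.Z and the target of the siRNAs, stood at 1244, 1236, 905 and 1178 FPKM in control 2-cell libraries 1, 2, 4 and 5 and at 415, 139 and 112 in knockdown libraries 1, 2 and 4. In morulae it was 1158, 1336, 1511 and 1421 FPKM in the controls and 30.3, 25.7 and 29.0 after knockdown. In blastocysts it was 2656, 2431, 1945 and 2055 FPKM in the controls and 64.2, 67.2, 53.2 and 57.6 after knockdown. Control and knockdown libraries did not overlap at any stage, and knockdown library 1 of the 2-cell stage kept the most H2afz of the 10 knockdown libraries.

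The stage labels were checked against marker genes. The summed FPKM of 7 oocyte genes, whose maternal RNA persists into the 2-cell stage, was 228 to 266 in control 2-cell libraries and 7.72 to 10.5 in control morulae. In control blastocysts it was 34.7 to 45.5, most of it Ooep at 32.1 to 44.0 FPKM, so the sum did not fall steadily with stage. The sum of 9 blastocyst lineage genes was 6.42 to 15.4 FPKM in control 2-cell libraries and 1096 to 1593 in control blastocysts, with Krt18 the most abundant. A sum of 7 cumulus and granulosa cell genes did not exceed 3.39 FPKM in any library, and Ptx3 and Fshr were at 0 in all 22.

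In control 2-cell embryos Zscan4f was the most abundant copy, at 88.3, 60.2, 56.8 and 65.9 FPKM in libraries 1, 2, 4 and 5. Zscan4d, a protein-coding copy like Zscan4f, was at 42.3, 46.0, 41.3 and 32.6 FPKM in the same libraries. Zscan4c, the copy whose promoter drives common reporters of 2-cell-like stem cells, was at 36.6, 41.1, 28.0 and 29.3 FPKM. Of these copies, Zscan4f was above both others in every control library, while Zscan4c and Zscan4d overlapped. Zscan4a was at 33.8, 31.6, 30.5 and 34.0 FPKM. Zscan4e was at 9.15, 9.03, 6.35 and 7.01 FPKM, and Zscan4b at 5.65, 5.68, 4.81 and 4.33. The annotation used here calls Zscan4a a pseudogene although its RNA was as abundant as that of Zscan4c, and Zscan4e and Zscan4b had the least RNA of the 6 at this stage.

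By their mean FPKM in control 2-cell embryos the copies stood in the order Zscan4f (67.8 ± 14.2, SD, n = 4), Zscan4d (40.5 ± 5.70), Zscan4c (33.7 ± 6.21), Zscan4a (32.5 ± 1.71), Zscan4e (7.89 ± 1.41) and Zscan4b (5.12 ± 0.661). Zscan4d was above Zscan4c in 4 of 4 libraries although their ranges overlapped. Zscan4c and Zscan4a overlapped too, with Zscan4c the higher in 2 of 4 libraries. Zscan4f and Zscan4d, Zscan4a and Zscan4e, and Zscan4e and Zscan4b did not overlap. Zscan4f made up 36.0% of the summed FPKM of the copies, Zscan4d 21.7%, Zscan4c 17.9%, Zscan4a 17.5%, Zscan4e 4.19% and Zscan4b 2.73%. Among the 55335 genes of the table, Zscan4f held place 935 by mean FPKM in these libraries and Zscan4b place 6365. The sum of the 6 copies was 188 ± 21.8 FPKM (SD, n = 4).

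How well the copies can be told apart by reads differs from copy to copy. Of all 150-base windows of its annotated transcripts, 87.0% of those of Zscan4d and 74.9% of those of Zscan4a occurred in no other member of the family, pseudogenes included. For Zscan4c it was 39.0%, for Zscan4b 33.6%, for Zscan4e 24.96% and for Zscan4f 22.6%. Zscan4b shared 65.9% of its windows with Zscan4e, and Zscan4f shared 62.0% with Zscan4-ps2. No more than 0.529% of the windows of any copy were found in transcripts outside the family. The separate levels of Zscan4b and Zscan4e, and of Zscan4c, Zscan4f and Zscan4-ps2, thus depend on how shared fragments were divided by the authors' software, and the windows take no account of both reads of a pair.

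After knockdown, Zscan4f was at 115, 75.3 and 81.2 FPKM in 2-cell libraries 1, 2 and 4. Knockdown library 1 was above every control, and the other 2 lay within the control range of 56.8 to 88.3. Zscan4d was at 43.9, 33.9 and 36.9 FPKM, all within the range of the controls. Zscan4c was at 48.0, 29.0 and 36.3 FPKM, 1 above the highest control at 41.1 and the other 2 within the control range. Zscan4a was at 41.1, 35.6 and 36.2 FPKM, each above the highest control at 34.0. Zscan4a was the 1 copy of 6 whose groups did not overlap, and 1.88% of all genes above 0 in these libraries had every knockdown library above every control library. Zscan4e was at 10.3, 8.28 and 9.64 FPKM and Zscan4b at 5.93, 4.99 and 5.94. Both overlapped the controls. Library 1, the knockdown library with the most H2afz left, had the highest FPKM of the 3 for every copy except Zscan4b.

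The test of these differences was limma on log2(FPKM + 1), adjusted over all genes with at least 1 FPKM in at least 3 of the 7 libraries, and a gene was called at an adjusted p under 0.05 with a log2 fold change beyond 1 in either direction. Of the 6 copies 0 were called, and of all 12160 genes tested 0.0% were called, with 701 at an unadjusted p under 0.05. The log2 fold changes, knockdown over control, were 0.48 (SE 0.22) for Zscan4f, 0.30 (SE 0.20) for Zscan4e, 0.27 (SE 0.15) for Zscan4a, 0.21 (SE 0.23) for Zscan4c, 0.17 (SE 0.19) for Zscan4b and -0.01 (SE 0.18) for Zscan4d, with adjusted p of at least 0.828. H2afz itself, at a log2 fold change of -2.53, had an adjusted p of 0.543, the smallest of all genes tested. These p-values measure the spread between pools of embryos, and fold changes on log2(FPKM + 1) understate those of genes with low FPKM. In bulk RNA, fewer expressing cells and less RNA per cell cannot be told apart.

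The order of the copies after knockdown was again Zscan4f, Zscan4d, Zscan4c, Zscan4a, Zscan4e and Zscan4b, at means of 90.6, 38.2, 37.7, 37.6, 9.42 and 5.62 FPKM. Zscan4f had the highest and Zscan4b the lowest FPKM in all 7 libraries of this stage. The middle copies Zscan4d, Zscan4c and Zscan4a overlapped again. Zscan4f made up 39.4 to 43.6% of the sum in the knockdown libraries and 31.1 to 40.9% in the controls. Zscan4d made up 16.6 to 18.1% in the knockdown libraries, below its 18.8 to 24.6% in every control, a difference in share that was not tested. The sum of the copies was 264, 187 and 206 FPKM after knockdown, against 216, 194, 168 and 173 in the controls. In deviations from group means, knockdown library 1 correlated at 0.21 with controls 1 and 2 and at -0.24 and -0.19 with controls 4 and 5, and knockdown library 4 at 0.21 and 0.16 with controls 4 and 5 and at -0.17 and -0.20 with controls 1 and 2. Knockdown library 2 correlated at -0.02 to 0.01 with all 4. Within the libraries numbered 1 and 2 the mean sum was 226 after knockdown and 205 in the controls, and within the higher numbers it was 206 and 170. This split by number was chosen after the data were seen, and the single copies did not all keep their direction. Within numbers 1 and 2 the difference in mean log2(FPKM + 1) was -0.05 for Zscan4c, -0.05 for Zscan4b and -0.19 for Zscan4d, and within the higher numbers it was 0.33, 0.32 and 0.01.

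**Figure D1:**
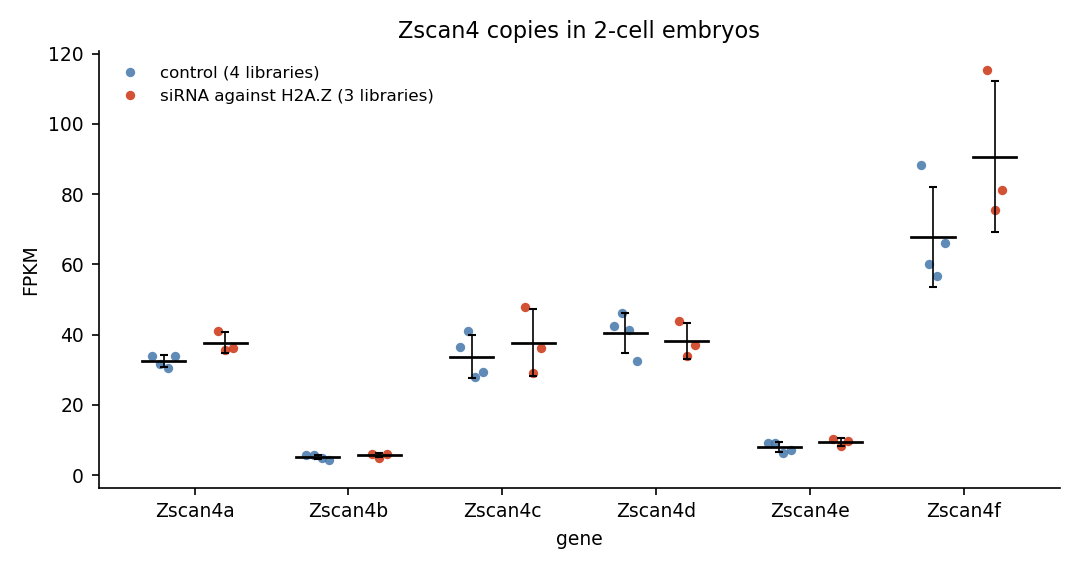
FPKM of each Zscan4 copy in 2-cell embryos, 1 point per library (4 control, 3 knockdown), with the mean and SD of each group as black lines. Zscan4f stands highest and Zscan4b lowest in both groups, and Zscan4a is the copy whose groups do not overlap.

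From the 2-cell stage to the morula the copies fell to the edge of detection. In control morulae 1, 2, 7 and 8, Zscan4f was at 0.0183, 0, 0.0961 and 0.944 FPKM. Zscan4d was at 0, 0.0419, 0.515 and 0.373, and Zscan4c at 0.0882, 0.0457, 0.0430 and 0.259. Libraries 7 and 8 had more Zscan4d than libraries 1 and 2, and library 8 had the most Zscan4f and Zscan4c. Zscan4a was at 0.0841, 0.00384, 0.0207 and 0.0769 FPKM, Zscan4e at 0.0263, 0.00488, 0.0456 and 0.0874, and Zscan4b at 0.0129, 0, 0.0257 and 0.0115. Control 2-cell embryos and control morulae did not overlap for any copy.

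All 6 copies were called lower in control morulae than in control 2-cell embryos, where 30.1% of the 13655 genes tested were called lower. Their log2 fold changes ran from -5.76 (SE 0.25) for Zscan4f to -2.56 (SE 0.15) for Zscan4b, with adjusted p of at most 1.45e-08. The mean sum of the copies in control morulae was 0.376% of that in control 2-cell embryos. By the same measure Zscan4d kept 0.573%, Zscan4e 0.521%, Zscan4f 0.390%, Zscan4c 0.323%, Zscan4b 0.245% and Zscan4a 0.143%. The order of these shares depends on single libraries, since most of the Zscan4f share comes from control morula library 8. In the knockdown libraries all 6 copies were again called lower from the 2-cell stage to the morula, with 30.5% of 12690 genes called lower. Their log2 fold changes ran from -5.79 (SE 0.26) for Zscan4f to -2.60 (SE 0.15) for Zscan4b. The copies enter these fits through the 2-cell libraries, with Zscan4f also above 1 FPKM in knockdown morula library 1, so the number that passed the filter follows from where the copies are high.

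**Figure D2:**
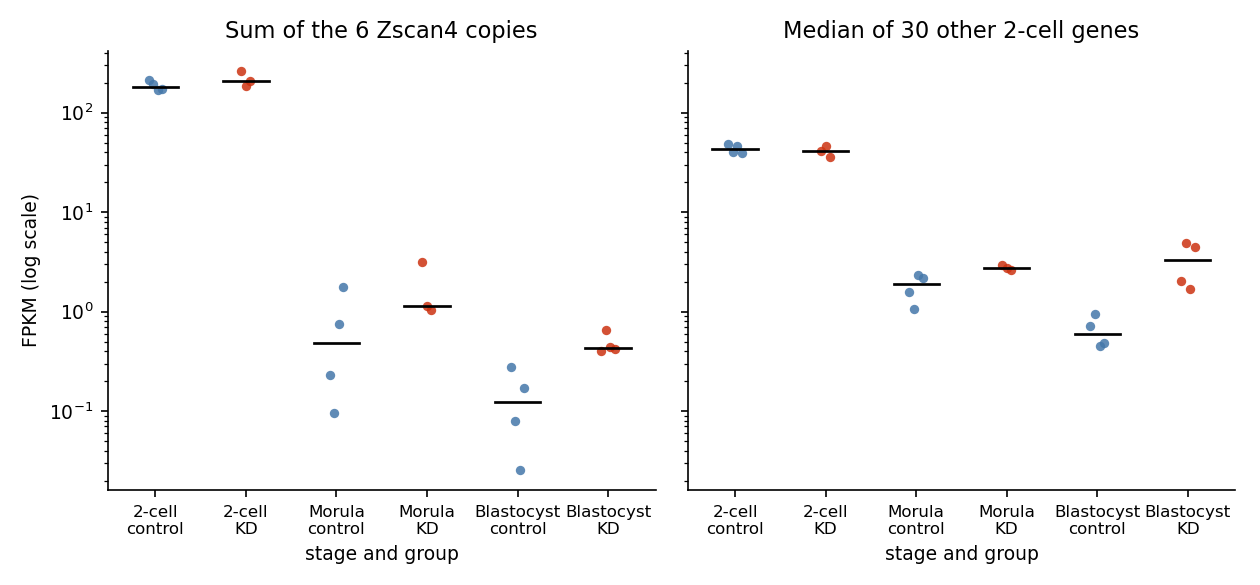
Summed FPKM of the 6 Zscan4 copies (left) and median FPKM of 30 other 2-cell genes (right) in each of the 22 libraries by stage and group, on a log scale, with the group median as a line. Both are highest in 2-cell embryos. In blastocysts the knockdown points lie above the control points in both panels, as they do for 8.41% of all single genes above 0.

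In knockdown morulae 1, 2 and 6, Zscan4a was at 0.280, 0.169 and 0.166 FPKM, each above the highest control at 0.0841. The approximate fragments behind these values were 12.8, 9.28 and 10.7, against 4.02, 0.184, 1.27 and 5.05 in the controls. Zscan4a was the 1 copy of 6 whose morula groups did not overlap, and 4.63% of all genes above 0 in these libraries had every knockdown library above every control. Zscan4f was at 1.27, 0.308 and 0.263 FPKM, with control library 8 at 0.944 between them. Zscan4d was at 0.837, 0.307 and 0.359, and control libraries 7 and 8 lay among these values. Zscan4c was at 0.574, 0.209 and 0.211, with control library 8 above the lower pair. Zscan4e and Zscan4b reached 0.101 and 0.0670 FPKM, and both overlapped the controls. Knockdown library 1 had the highest FPKM of the 3 for every copy except Zscan4e.

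No copy reached 1 FPKM in 3 morula libraries, so 0 of 6 entered the limma test, which called 0.992% of 10989 genes higher and 2.53% lower after knockdown, with 3352 at an unadjusted p under 0.05. Each copy was compared by a 2-sided exact permutation test on the difference of mean log2(FPKM + 1), 12 tests in all over morulae and blastocysts. For Zscan4a in morulae the difference was 0.20 (n = 3 and 4) with an exact p of 0.0286, the smallest that 35 arrangements can give. With single libraries left out the difference ran from 0.16 to 0.23. The exact p was then 0.1 without a control library and 0.0667 without a knockdown library. Each is the smallest that the fewer arrangements can give. For the other copies the exact p in morulae ran from 0.114 for Zscan4c to 0.371 for Zscan4f. In a limma fit of all genes above 0 the adjusted p of Zscan4a was 0.0703, and with 0.1 in place of 1 added before the logarithm it was 0.0968, a setting chosen after the data were seen. No copy's difference in morulae passed a correction over all genes.

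The summed FPKM of the copies was 3.12, 1.14 and 1.03 in knockdown morulae and 0.230, 0.0964, 0.746 and 1.75 in the controls. Control library 8 lay above knockdown libraries 2 and 6. Among libraries numbered 1 and 2 the mean sum was 2.13 after knockdown and 0.163 in the controls, while among the higher numbers, with 1 knockdown library, it was 1.03 and 1.25. Whether the numbers mark different collections is not stated, and their part in the difference was not tested. In the deviations of all tested genes from their group means, morula libraries resembled those of their own range, knockdown libraries 1 and 2 correlating at 0.09 to 0.18 with controls 1 and 2 and at -0.24 to -0.09 with controls 7 and 8. Knockdown library 6 correlated at -0.28 and -0.21 with controls 1 and 2 and at 0.19 and 0.35 with controls 7 and 8. The exact tests exchange libraries across the ranges. Without control library 8 the control mean fell from 0.706 to 0.358 FPKM, and without knockdown library 1 the knockdown mean fell from 1.76 to 1.09. Zscan4a averaged 0.224 against 0.0440 within numbers 1 and 2 and 0.166 against 0.0488 within the higher numbers. Since its groups do not overlap, any split of the libraries gives this direction, so the split adds no support.

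In control blastocysts 1, 4, 5 and 6, Zscan4d was at 0.0498, 0, 0 and 0.0238 FPKM, and in knockdown blastocysts 1, 4, 5 and 6 at 0.0859, 0.0938, 0.304 and 0.0817. All 4 knockdown libraries were above the highest control, and library 5 stood apart at more than 3 times the level of the others. The approximate fragments of Zscan4d were 3.20 to 13.8 in the knockdown libraries and 0 to 2.50 in the controls. It was the 1 copy of 6 whose blastocyst groups did not overlap, where 8.41% of all genes above 0 had every knockdown library above every control.

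Zscan4f was at 0.0743, 0.0662, 0 and 0.0948 FPKM in control blastocysts and at 0.0839, 0.453, 0.0594 and 0.117 after knockdown. Library 4 of the knockdown group stood apart, library 6 was also above the highest control, and libraries 1 and 5 lay within the control range. Zscan4a was at 0.0132, 0, 0.0256 and 0 in the controls and at 0.106, 0.0590, 0.00299 and 0.0637 after knockdown, with 3 of 4 knockdown libraries above every control. Zscan4c was at 0.120, 0.0137, 0 and 0.0457 in the controls and at 0.0867, 0.0298, 0.0743 and 0.158 after knockdown, and its groups overlapped. Zscan4b was at 0 in all 4 controls and in knockdown libraries 5 and 6, and at 0.0305 and 0.0171 in knockdown libraries 1 and 4. Zscan4e, at 0 in 2 libraries of each group, was the copy with a lower mean after knockdown, 0.00227 against 0.00703.

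Again 0 of 6 copies entered the limma test in blastocysts, which called 6.06% of 11828 genes higher and 7.69% lower, with 5439 at an unadjusted p under 0.05. The exact permutation test for Zscan4d gave a difference of 0.16 in mean log2(FPKM + 1) and an exact p of 0.0286 (n = 4 and 4), the smallest that 70 arrangements can give in a 2-sided test. Without knockdown library 5 the difference fell to 0.09 and the exact p was 0.0571. Without control library 6 the p was also 0.0571, and without control library 4 or 5 it was 0.0857. It stayed at 0.0286 without control library 1 and without knockdown library 1, 4 or 6. Leaving libraries out of the exact tests was decided after the data were seen. For the other copies the exact p ran from 0.0857 for Zscan4a to 0.543 for Zscan4e. Without knockdown library 5, the one within the control range, the exact p of Zscan4a was 0.0286, the smallest possible. With any other single library left out it ran from 0.0857 to 0.143. In the limma fit of all genes above 0 the adjusted p of Zscan4d was 0.120, and 0.0642 with 0.1 added before the logarithm. No copy's difference in blastocysts passed a correction over all genes either.

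Taken as a sum, the copies stood at 0.397, 0.658, 0.441 and 0.420 FPKM in knockdown blastocysts and at 0.280, 0.0799, 0.0256 and 0.169 in the controls. Every knockdown library was above every control, as for 8.41% of all genes above 0 at this stage. The sums rested on approximately 15.6 to 25.3 fragments against 0.996 to 13.1. The copies that made up the sum differed between knockdown libraries, with Zscan4f the most abundant in library 4, Zscan4d in library 5 and Zscan4c in library 6. In limma with the sum entered as 1 gene the log2 fold change was 0.37 (SE 0.10), given as a value with no test. The mean sum in blastocysts was 0.0740% of the 2-cell level in controls and 0.218% after knockdown, so these levels are a trace of those at the 2-cell stage. From the knockdown 2-cell embryos to the knockdown morulae the sum kept 0.805%. This share depends on knockdown morula library 1, without which the morula mean was 1.09 instead of 1.76 FPKM.

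**Figure D3:**
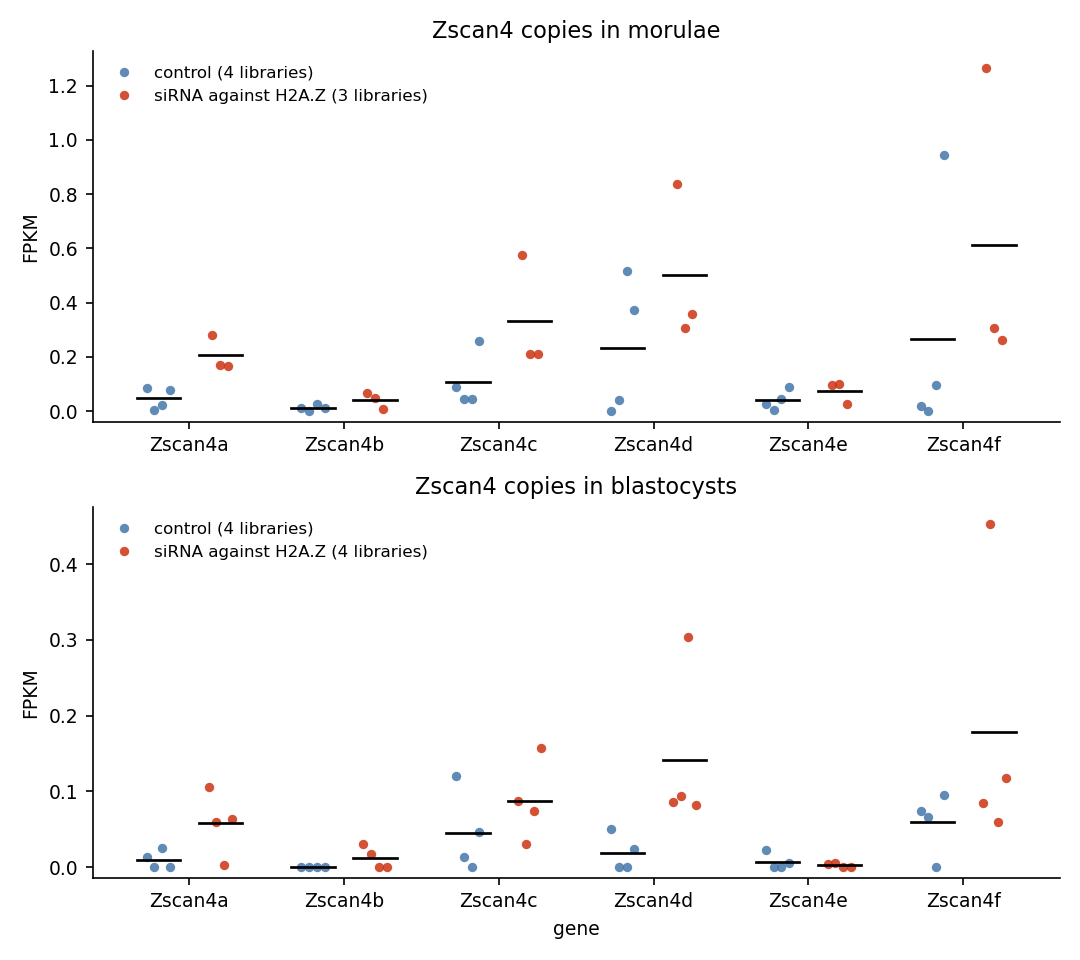
FPKM of each Zscan4 copy in morulae (top) and blastocysts (bottom), 1 point per library (4 control and 3 knockdown morulae, 4 and 4 blastocysts), with group means as black lines. The Zscan4a groups do not overlap in morulae and the Zscan4d groups do not overlap in blastocysts, on a scale of at most 1.27 FPKM.

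Zscan4f had the highest mean in both groups of morulae and both groups of blastocysts, but it overlapped the next copy in all 4. It was the highest copy in 1 of 4 control morulae, library 8, and in 2 of 3 knockdown morulae, 2 of 4 control blastocysts and 1 of 4 knockdown blastocysts. The ranges of the other neighbouring copies also overlapped in each of these groups, with the exception of Zscan4a and Zscan4e in knockdown morulae. The level of H2afz did not rank the knockdown libraries as the copies did in blastocysts, where library 4 had both the most H2afz, 67.2 FPKM, and the highest sum, and library 5 had the least H2afz, 53.2, and the next highest sum.

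The 6 copies lie within 820 kb of chromosome 7 in the build GRCm38, from base 10794242, the end of Zscan4a, to base 11614112, beyond Zscan4f, together with 3 loci named as Zscan4 pseudogenes. Zscan4c and Zscan4f lie on the plus strand and the other 4 copies on the minus strand. Each copy has 4 exons in its longest transcript, and the coding sequence is 1515 bases in Zscan4b and Zscan4e and 1518 in Zscan4c, Zscan4d and Zscan4f, with none annotated for Zscan4a. The 2 copies with 1515 coding bases are the 2 with the least RNA in 2-cell embryos, and along the chromosome they lie between higher copies. The loci named Zscan4-ps1, Zscan4-ps2 and Zscan4-ps3 are protein-coding in GENCODE, each with 1518 coding bases, and pseudogenes in RefSeq. Zscan4e is likewise protein-coding in GENCODE and a pseudogene in RefSeq, while Zscan4a is a pseudogene in both.

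**Figure D4:**
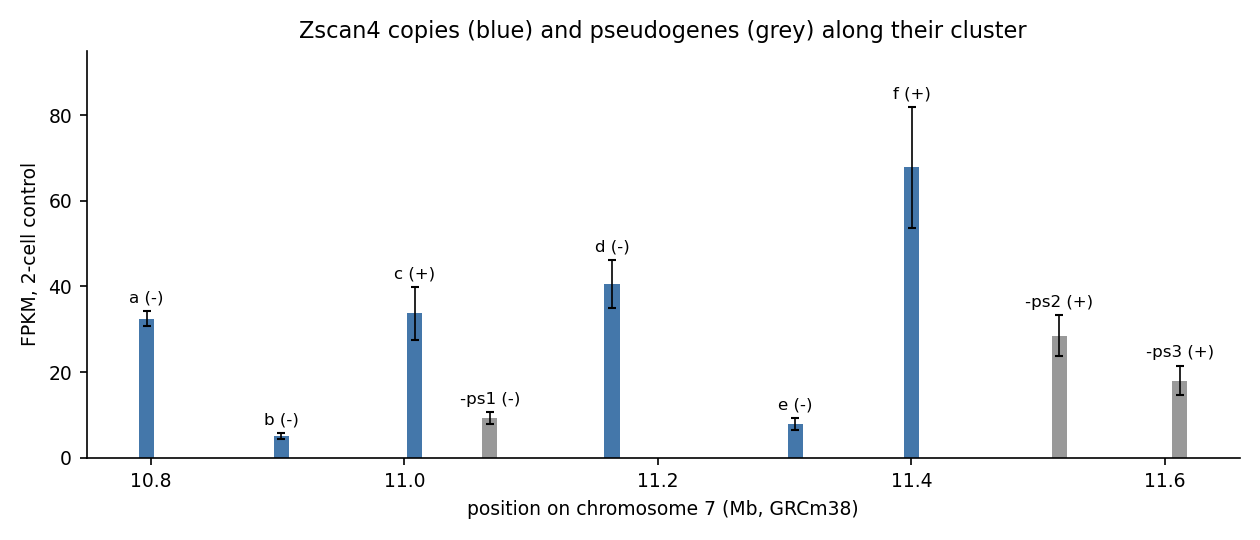
Mean FPKM in control 2-cell embryos (bars, with SD over 4 libraries) of the 6 Zscan4 copies in blue and the 3 loci named as pseudogenes in grey along chromosome 7, in Mb of GRCm38, each with its strand. Zscan4f, at 67.8 FPKM, is the highest of the 9 loci and Zscan4b, at 5.12, the lowest.

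The 3 loci named as pseudogenes were also far higher in control 2-cell embryos than in control morulae. In control 2-cell embryos Zscan4-ps2 was at 31.5, 32.2, 21.7 and 28.4 FPKM, Zscan4-ps3 at 19.3, 22.3, 14.9 and 15.7, and Zscan4-ps1 at 7.55, 9.32, 10.97 and 8.95. All 3 were called lower from control 2-cell embryos to control morulae, beside 30.1% of all genes tested, with log2 fold changes of -4.70 for Zscan4-ps2, -4.11 for Zscan4-ps3 and -3.28 for Zscan4-ps1. They too entered the fit through the 2-cell libraries alone. After knockdown at the 2-cell stage 0 of 3 were called, with log2 fold changes of 0.35 for Zscan4-ps2, 0.42 for Zscan4-ps3 and -0.05 for Zscan4-ps1. Of the windows of Zscan4-ps1, 87.4% occurred nowhere else in the family.

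Inside the cluster 44 other genes are annotated, of which 0 are protein-coding and 10 passed 1 FPKM in at least 1 library. The highest in control 2-cell embryos were the pseudogenes Gm6909 at 12.6 to 22.7 FPKM, Gm7151 at 12.1 to 18.7 and Gm18204 at 11.2 to 17.0. In control morulae these 3 were at 0.336 FPKM or below, 0.344 or below and 0.305 or below. Gm6909 reached 1.42 FPKM in a knockdown blastocyst library, and it was at 0 in all 4 controls of that stage. These genes were chosen after their values were seen. The nearest annotated genes outside, Gm45438 before and Gm18641 after, did not exceed 0.236 FPKM in any library, and the nearest protein-coding ones, the pheromone receptor genes Vmn1r71 and Vmn1r72, did not exceed 0.0425.

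Since all 6 copies had far more RNA in 2-cell embryos than later, the stretch before their start sites is shown for comparison. RefSeq windows of the build GRCm38.p6, from 250 bases before to 50 after the start, were found for 4 of the 6 copies, Zscan4b, Zscan4c, Zscan4d and Zscan4f. The 120 bases around the TATAAAA string of each are printed 5′ to 3′ on the gene's strand, with capitals marking, from left to right, the match of a loose form of the gapped double homeodomain motif on the opposite strand, TATAAAA and CCAAT. They come from chr7:10905051-10905170 (minus strand), chr7:11005602-11005721 (plus), chr7:11166183-11166302 (minus) and chr7:11397795-11397914 (plus).
Zscan4b: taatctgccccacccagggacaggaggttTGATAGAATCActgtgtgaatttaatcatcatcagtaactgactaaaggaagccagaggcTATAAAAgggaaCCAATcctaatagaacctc
Zscan4c: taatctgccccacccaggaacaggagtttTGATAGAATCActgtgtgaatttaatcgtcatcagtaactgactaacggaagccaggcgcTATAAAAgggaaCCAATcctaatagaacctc
Zscan4d: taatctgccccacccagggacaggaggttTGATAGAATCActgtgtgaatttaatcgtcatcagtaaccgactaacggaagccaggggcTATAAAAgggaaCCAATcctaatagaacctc
Zscan4f: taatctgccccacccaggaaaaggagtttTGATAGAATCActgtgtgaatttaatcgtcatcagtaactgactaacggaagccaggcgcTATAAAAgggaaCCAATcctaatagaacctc

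Over these 120 bases Zscan4c and Zscan4f differed at 1 base, Zscan4b and Zscan4f at 7, and the other pairs at 4 to 6. The stretch is thus nearly the same in the most and the least abundant copy. TATAAAA began 31 bases before the annotated start in Zscan4b and Zscan4f, 54 before in Zscan4c and 65 before in Zscan4d. In all, 11 strings were searched on both strands in the whole windows, some of them for factors of the 2-cell programme, and which to show was decided after the matches were seen. TATAAAA was in 4 of 4 windows and in 5.48% of all 32851 promoter windows, and CCAAT was in 4 of 4 and 37.4%. The loose form of the gapped double homeodomain motif, with 2 free bases and overlapping TGATT, was in 4 of 4 and 0.207%, and its strict form, with 1 free base and contained in the loose one, was in 0 of 4 and 0.0335%. TGACCTT was in 4 of 4 and 4.72%. TATAAA, part of TATAAAA, was in 4 of 4 and 13.6%, CACAC in 4 of 4 and 48.2%, and TGATT in 4 of 4 and 37.0%. TGCACAC, which contains CACAC, was in 0 of 4 and 4.40%, CACGTG in 0 of 4 and 7.15%, and TAATCC in 0 of 4 and 7.06%. A match says only that the letters are there, and the 4 stretches are nearly identical, so they are not independent.

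Among known activators of the copies, Duxf3, the annotated member of the Dux family, was at 0.0109, 0.0706, 0.0906 and 0.595 FPKM in control 2-cell embryos and at 0.0518, 0.0289 and 0.133 after knockdown. Its RNA was thus near 0 in libraries with much Zscan4 RNA. Dppa2, which acts upstream of Dux, was at 136, 134, 147 and 174 FPKM in control 2-cell embryos and at 102, 128 and 103 after knockdown, with a log2 fold change of -0.34 and an adjusted p of 0.828. In blastocysts it was at 261, 372, 475 and 373 FPKM in the controls and at 643, 595, 667 and 611 after knockdown, with a log2 fold change of 0.80 and an adjusted p of 0.00265, not called because the change was under 1. Its partner Dppa4 was at 219 to 285 FPKM in control 2-cell embryos and 210 to 259 after knockdown, and in blastocysts at 197 to 217 in the controls and 226 to 309 after knockdown. Of 9 tested genes of the list of activators 0 were called in 2-cell embryos, 0 of 5 in morulae and 1 of 5 in blastocysts. In either direction 0.0%, 3.52% and 13.7% of all genes were called in these comparisons, so 1 of 5 is not a result about the list. The gene called was Obox6, a homeobox gene of early embryos, at 4.86, 7.90, 8.07 and 12.6 FPKM in control blastocysts and at 86.3, 81.0, 95.2 and 101 after knockdown, a log2 fold change of 3.36 (SE 0.21, adjusted p 9.70e-07). Of the 18 genes listed as repressors of the 2-cell programme, such as Trim28, Chaf1a and Kdm1a, 0 of 18 were called by limma in 2-cell embryos, 0 of 17 in morulae and 0 of 18 in blastocysts, with median log2 fold changes of 0.08, 0.23 and 0.27.

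The copies kept less of their 2-cell level in later stages than most of a list of 30 other genes of the 2-cell burst. Of 29 tested, 25 were called lower from control 2-cell embryos to control morulae, beside 30.1% of all genes, and 25 of 29 in the knockdown libraries, beside 30.5%. A gene of this list can enter these fits through the 2-cell libraries where it is high, so nothing is read from the counts. The median of the 30 genes kept 4.13% of its 2-cell FPKM in control morulae, and 0 of the 30 kept a smaller share than the summed Zscan4 copies with their 0.376%. Such a small share was not particular to the copies. Of the list of activators, Obox1, Obox2, Obox3 and Obox5 kept smaller shares still. Obox3 averaged 149 FPKM in control 2-cell embryos and 0.121 in control morulae, and Obox5 199 and 0.151. The other activators in the data kept more, such as Obox6 at 566 and 520. In knockdown morulae the median share was 7.48%, and 1 of 30 lay below that of the copies, at 0.786% against 0.805%. That narrow gap depends on knockdown morula library 1, which raised the share of the copies. In control blastocysts the median share was 1.29%, and 1 of 30 lay below that of the copies. After knockdown 13 of the 22 tested in blastocysts were called higher, beside the 6.06% of all genes tested, with a median log2 fold change of 1.49 against 0.00 over all genes. A gene can enter that test through the knockdown libraries alone, so the filter shapes both the count and the median. In knockdown blastocysts the median of the list kept 9.89% of its 2-cell level, and 0 of 30 kept less than the summed Zscan4 copies with their 0.218%. Outside it, Obox1, Obox2, Obox3 and Obox5 again kept less. Obox5 averaged 170 FPKM in knockdown 2-cell embryos and 0.0136 in knockdown blastocysts, and Obox3 150 and 0.0511. The other activators in the data kept more, such as Obox6 at 544 and 91.0.

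Genes of that list are named here, all but Zfp352 because they were called. Their height above the copies follows from that choice, since genes that failed the filter, as the copies did, are not shown. Zfp352, a zinc finger gene of the same burst, was at 0.279, 0.772, 0.0826 and 0.348 FPKM in control blastocysts and at 1.91, 5.02, 1.52 and 4.65 after knockdown, a log2 fold change of 1.56 (SE 0.29, adjusted p 0.00157). Tcstv3, whose product is also linked to telomere lengthening, was at 0.760, 1.69, 0.248 and 1.21 in the controls and at 5.73, 11.5, 0.988 and 18.8 after knockdown, overlapping in library 5, with a log2 fold change of 2.01 (SE 0.56, adjusted p 0.0145). Sp110, a nuclear body gene, was at 2.17 to 5.03 FPKM in the controls and 24.3 to 37.7 after knockdown, with a log2 fold change of 2.80. Tdpoz5 and Pramef25 had log2 fold changes of 2.05 and 1.94. Their knockdown libraries 4 and 6 were the highest, at 13.5 and 15.4 FPKM for Tdpoz5 and 8.34 and 11.3 for Pramef25, and library 6 was the one with the highest Tcstv3. For the Zscan4 sum, library 4 was the highest and library 6 was the third. In morulae 1 of 26 tested genes of the list was called higher, beside 0.992% of all genes, and it was Ddit4l, with a log2 fold change of 1.05 (adjusted p 0.00375), and in 2-cell embryos 0 of 30, with a median of 0.02.

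Of the telomere genes, 0 of 8 were called in 2-cell embryos and 0 of 9 in blastocysts, beside 0.0% and 13.7% of all genes in either direction. In morulae 1 of 9 was called lower, beside 2.53% of all genes, and it was Pot1a, which encodes a protein that binds the single strand of telomeres, at 3.25 to 3.63 FPKM in the controls and 0.80 to 1.12 after knockdown (log2 fold change -1.11, adjusted p 0.00261). Of the other genes named Zscan, 1 of 4 tested was called higher in blastocysts, beside 6.06% of all genes. With so few genes nothing is read from these counts. It was Zscan5b, at 0.91 to 3.54 FPKM in the controls and 5.12 to 9.26 after knockdown (log2 fold change 1.41, adjusted p 7.55e-04), and it too was highest in 2-cell embryos, at 110 to 275 FPKM in the controls.

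The genes with the pattern most like the sum of the copies over the 22 libraries, by Pearson's r on log2(FPKM + 1) among 15688 genes, were Fbxw28 (r = 0.996), Nexn (0.996), Gm47486 (0.995), Gm48764 (0.995) and Gm47738 (0.995). These values are a description of 22 libraries that share their stages, and 175 genes, 1.12% of those compared, had an r above 0.99. Fbxw28, an F-box gene, averaged 119 FPKM in control 2-cell embryos, 0.189 in control morulae and 0.0204 in control blastocysts. After knockdown it was at 0.444 to 1.87 FPKM in morulae, above the controls' 0.109 to 0.361, and at 0.0870 to 0.271 in blastocysts, above 0 to 0.0559. Of all genes above 0, 4.63% in morulae and 8.41% in blastocysts separated in this way. Nexn overlapped in blastocysts, Gm47486 and Gm47738 overlapped in morulae, and Gm48764 overlapped at neither stage. These genes were picked for their likeness to the sum over the same libraries, so their pattern is no separate support. By Spearman's rho Fbxw28 held place 4 and 1 of the 5 genes was shared with the 5 highest by that measure.

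Marker sums differed between control and knockdown libraries at several points. The summed FPKM of 5 blood genes was 5.62, 2.57, 2.19 and 4.26 in control morulae and 14.0, 8.93 and 6.44 after knockdown, and both of the 2 tested, Hba-a1 and Hba-a2, were called higher there, beside 0.992% of all genes, with log2 fold changes of 1.20 (SE 0.26) and 1.12 (SE 0.25). Hba-a1 was the most abundant, and Hbb-bs and Hbb-bt were at 0 in all libraries. In knockdown morula library 1, Hba-a1 and Hba-a2, at 7.77 and 6.18 FPKM, made up nearly all of the 14.0, leaving little for Alas2. The knockdown morula libraries stood in the same order by blood sum and by Zscan4 sum. In blastocysts the same genes summed to 1.32 to 3.21 FPKM in the controls and 3.56 to 5.87 after knockdown, and 0 of the 2 tested were called. The knockdown values there were 3.56, 5.87, 5.04 and 3.73 in libraries 1, 4, 5 and 6, again in the order of the Zscan4 sums. In the controls of both stages and in knockdown 2-cell embryos the orders differed. The sum mainly reflects Hba-a1 and Hba-a2 and does not identify blood cells, and its relation to the Zscan4 values was not tested. Among the oocyte genes Ooep was called lower after knockdown in morulae and blastocysts, with log2 fold changes of -1.23 and -3.52, while among the blastocyst genes Nanog was called lower in morulae (-2.23) and Krt18 in blastocysts (-1.02). The summed blastocyst genes were 222 to 295 FPKM in control morulae and 100.1 to 152 after knockdown, and 703 to 1030 in knockdown blastocysts, again below the controls. The summed oocyte genes were 217 to 227 FPKM in knockdown 2-cell embryos, below the controls, and 3.52 to 7.36 in knockdown blastocysts against 34.7 to 45.5 in the controls. The part of developmental stage and of other cells in the Zscan4 values was not tested.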

How the data were processed

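The authors aligned reads with STAR and quantified genes with StringTie 2.1.4. The deposited table gives FPKM per gene and library. The Zscan4 copies were found by symbol. FPKM was divided by median-of-ratios factors within each comparison, and log2(FPKM + 1) was fitted in limma 3.58.1 (R 4.3.3) with a mean-variance trend, for genes whose deposited FPKM reached 1 in 3 or more of the libraries compared, with Benjamini-Hochberg adjustment over all genes. The fit was tested on simulated data. Where copies failed the filter, exact permutation tests over libraries were used. Named genes are the copies, their pseudogenes, H2afz, Duxf3, Dppa2, Dppa4 and Zfp352, at most 4 called genes of each list in each direction, the 5 genes most like the sum, and the nearest neighbours. Other genes are mentioned only as examples from a list, as markers at 0 or as the highest inside the cluster. Members and lists were chosen with earlier results of these data known. The range searched for the 1-fragment step was narrowed after a tie was seen. Scaling moved the median of all genes by 0.10 (log2) in the morula comparison, by 0.16 from knockdown morulae to blastocysts, and by 0.12 in the difference between them; changes are relative to it. Alternatives were another added constant, no filter, unscaled FPKM, each library left out and replicate numbers as a block. Annotation was GENCODE vM21; promoters were from RefSeq.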

Additional observations from a re-analysis of the deposited data

Results flagged for a closer look

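Of 44 sets of 4 libraries examined for 1 library far from the others, 5 had one. The limit used flags about 1 in 20 independent sets of normally distributed values. Many of these values lie near 0 and the sums contain the single genes, so that rate does not apply here. Zscan4f in control morulae reached 0.944 FPKM in library 8, with the other 3 at 0.0961 or below. In knockdown blastocysts Zscan4f reached 0.453 in library 4, the sum of the copies 0.658 in the same library, and Zscan4d 0.304 in library 5. Zscan4-ps1 in control blastocysts was at 0.00447 in library 6 and at 0 in the other 3. All 5 lie at stages where the copies are near 0.

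The effect of the knockdown differed between blastocysts and morulae, by limma's test of the difference itself, for 5 of the named genes and could not be fitted for any Zscan4 copy under the same filter. The difference in log2 fold change, blastocysts minus morulae, was 2.63 for Obox6, 2.49 for Nanog, 1.77 for Sp110, 1.05 for Zscan5b and -2.28 for Ooep. The adjusted p ran from 2.79e-05 for Obox6 to 0.0420 for Zscan5b. In all genes 11.7% of 12727 passed this test.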

How the results depend on the processing

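The number of Zscan4 copies called was 0 in the 2-cell comparison and 6 of 6 from control 2-cell embryos to morulae under each alternative run. From knockdown 2-cell embryos to morulae it ran from 1 to 6 with single libraries left out. Leaving out knockdown 2-cell library 1, 2 or 4 gave 1, because 2 libraries of that stage are left and the filter asks for 3; with a filter of 2 libraries, chosen after seeing the data, it was 6. The log2 fold change of Zscan4d in 2-cell embryos, -0.01, turned to 0.03 without control library 1, 0.06 without control library 2 and 0.10 without knockdown library 2, over a range of -0.12 to 0.10 with single libraries left out. The others kept their sign with single libraries left out, though Zscan4c and Zscan4b were lower after knockdown within numbers 1 and 2, and ran from 0.02 to 0.42 for Zscan4c, 0.28 to 0.63 for Zscan4f, 0.18 to 0.41 for Zscan4e, 0.10 to 0.27 for Zscan4b and 0.20 to 0.34 for Zscan4a. In blastocysts Zscan4e, at a difference of -0.01 between mean log2 values, ran from -0.0101 to 0.000855 with single libraries left out, the latter without control library 1.

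Counts over all genes moved more. In morulae 387 genes were called, 789 with 0.1 added and 169 with no filter. In blastocysts it was 1626, 2477 with 0.1 and 2798 with no filter and 0.1. From control morulae to blastocysts it was 3108 and 5889 with no filter and 0.1, and after knockdown 1676, 2533 with 0.1 and 2664 with both. For the difference between blastocysts and morulae it was 1495, 988 with no filter, 839 with both and 962 without knockdown morula library 1. In 2-cell embryos it was 0, 1 without control library 2 and 3 without knockdown library 1. No filter with 0.1 was chosen after seeing the data.

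Replicate numbers as a block left 0 copies called in 2-cell embryos and 6 of 6 called lower from 2-cell embryos to morulae; same-number libraries correlated at -0.11 to 0.35, so single numbers were not taken as pairs, although morula libraries, and 2-cell knockdown libraries 1 and 4, resembled controls of their own range of numbers. Without control blastocyst library 1 the mean control sum fell from 0.139 to 0.0916 FPKM. Scaling over all 22 libraries raised the knockdown 2-cell mean of every copy, that of Zscan4a from 37.6 to 41.7 FPKM and that of Zscan4b from 5.62 to 6.24. The knockdown mean of Zscan4d went from 38.2 to 42.5 and its control mean from 40.5 to 41.9. Its direction thus turned under this scaling. Of 699 alternative values, 673 kept their direction and their side of the threshold or moved by no more than the spread of the libraries or 1.5 times for counts. At most 25.3 approximate fragments lie behind any blastocyst sum, so differences between single copies there were at the limit of detection.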
